A study of Mus musculus with 8 samples.

Results

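The Cyp4a family is a group of liver and kidney cytochrome P450 enzymes encoded side by side on mouse chromosome 4. Its 6 members described here, Cyp4a10, Cyp4a14, Cyp4a31, Cyp4a32, Cyp4a12a and Cyp4a12b, were taken by symbol from a table of 55487 genes. All 6 passed the filter on low counts and were among the 13312 genes tested. Counts were compared between 4 liver libraries from male C57Bl/6J mice of about 10 weeks given water by oral gavage (control) and 4 from mice dosed with 17 mg of potassium sorbate the same way, each taken 4 hours after dosing. Potassium sorbate is a food preservative, the salt of sorbic acid, an unsaturated fatty acid. The sources used here give no dose per body weight, no fasting state and no clock hour of collection. No label states that the libraries come from separate animals, so the p-values reflect the spread among libraries, which may be in part technical.

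CYP4A enzymes sit in the endoplasmic reticulum and add a hydroxyl group to the methyl (omega) end of fatty acids. Alcohol and aldehyde dehydrogenases then turn the product into a dicarboxylic acid, which peroxisomes shorten. In rodent liver, Cyp4a10 and Cyp4a14 are classical targets of the fatty acid sensing nuclear receptor PPAR-alpha, while Cyp4a12a is a male-predominant enzyme known for making 20-HETE from arachidonic acid.

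The members are close in sequence, which bears on every count below, so coding bases 4 to 63 in exon 1 of each are shown here to place the members by likeness. Sequences are from GENCODE M21 transcripts on GRCm38, 5′ to 3′ on the coding strand, and capitals mark bases that differ from Cyp4a10.
Cyp4a10: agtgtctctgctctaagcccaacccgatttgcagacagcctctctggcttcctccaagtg
Cyp4a31: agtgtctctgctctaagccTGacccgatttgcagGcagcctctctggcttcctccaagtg
Cyp4a32: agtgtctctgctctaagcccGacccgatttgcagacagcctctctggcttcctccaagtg
Cyp4a12a: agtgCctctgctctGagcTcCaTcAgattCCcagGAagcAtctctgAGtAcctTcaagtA
Cyp4a12b: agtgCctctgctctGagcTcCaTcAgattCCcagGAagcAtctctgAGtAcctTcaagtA
Cyp4a14: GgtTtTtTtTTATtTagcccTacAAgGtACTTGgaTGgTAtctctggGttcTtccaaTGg
These stretches lie at chr4:115518325-115518384 (Cyp4a10), chr4:115563720-115563779 (Cyp4a31), chr4:115600978-115601037 (Cyp4a32), chr4:115299131-115299190 (Cyp4a12a) and chr4:115411686-115411745 (Cyp4a12b), all on the plus strand, and at chr4:115496051-115496110 on the minus strand (Cyp4a14). Cyp4a31 differed from Cyp4a10 at 3 of the 60 bases, Cyp4a32 at 1, both Cyp4a12 genes at 16 and Cyp4a14 at 26.

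Over the whole coding sequence the members fell into 3 groups. Cyp4a10 was 96.6% identical to Cyp4a31 and 97.2% identical to Cyp4a32, and Cyp4a12a was 98.5% identical to Cyp4a12b. Between Cyp4a10 and Cyp4a12a the identity was 80.2%, and Cyp4a14 was 75.02% to 75.9% identical to each of the others. The longest identical run was 297 bases between Cyp4a12a and Cyp4a12b, 179 bases between Cyp4a10 and Cyp4a32, and 23 bases between Cyp4a10 and Cyp4a14.

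Reads can be told apart only where such copies differ. The 60-base coding stretches with the most differences within each close group are given to show where that is, with capitals at positions that vary within the group. Coding bases 200 to 259, in exon 2, had 9 variable positions among Cyp4a10 (chr4:115519640-115519699), Cyp4a31 (chr4:115565020-115565079) and Cyp4a32 (chr4:115602270-115602329). Coding bases 630 to 689, in exon 6, had 4 between Cyp4a12a (chr4:115326628-115326687) and Cyp4a12b (chr4:115432881-115432940), all on the plus strand of GRCm38. In the exon 2 stretch most variable positions set Cyp4a32 apart. There Cyp4a10 and Cyp4a31 differ from each other only at a G against A and at the last base.
Cyp4a10: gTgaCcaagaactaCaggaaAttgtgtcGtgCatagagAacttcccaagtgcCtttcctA
Cyp4a31: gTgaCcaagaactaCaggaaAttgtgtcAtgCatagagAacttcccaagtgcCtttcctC
Cyp4a32: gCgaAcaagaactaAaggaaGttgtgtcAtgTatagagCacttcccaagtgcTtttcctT
Cyp4a12a: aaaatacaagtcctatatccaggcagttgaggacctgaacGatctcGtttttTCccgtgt
Cyp4a12b: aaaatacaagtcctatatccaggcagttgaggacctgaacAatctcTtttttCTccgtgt

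Of all 50-base windows in the longest coding transcript of each gene, 48.9% for Cyp4a12a and 49.4% for Cyp4a12b occurred unchanged in a transcript of another gene. In both cases the other gene was the partner. The share was 46.8% for Cyp4a32, 30.5% for Cyp4a10, 21.8% for Cyp4a31 (some of its windows occur in 559 genes outside the family) and 0.245% for Cyp4a14. With 100-base windows these shares were 35.8%, 36.2%, 20.1%, 12.7% and 8.22%, and no window of Cyp4a14 was shared. Single-gene values are therefore uncertain for the Cyp4a10, Cyp4a31 and Cyp4a32 group and for the Cyp4a12 pair, while Cyp4a14 has almost no shared windows. How the authors treated reads that match several genes is not given in the sources used here.

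Total counts per library ran from 15773932 to 25844731. Levels are given in CPM, counts relative to the TMM-scaled library total. All 12 hepatocyte markers were tested and 1, Cyp2e1 (named after its value was seen), was called higher, with summed levels of 78808 to 97115 CPM in controls and 92806 to 116068 CPM with sorbate. Kidney tubule markers, a check because kidney also makes CYP4A enzymes, summed to 0.797 to 2.90 CPM and 1.22 to 1.78 CPM, with Slc12a1, Aqp2, Kap and Slc22a6 at 0 in all 8 libraries and no call for the 1 gene tested of 8. Some markers of other cells were called lower with sorbate, as were 6.3% of all genes tested. They included 4 of 8 Kupffer cell genes (summed level 196 to 471 CPM in controls, 141 to 273 CPM with sorbate). So were 4 of 5 erythroid genes (331 to 1373 CPM and 251 to 373 CPM) and 2 of 4 tested bile duct genes (52.0 to 248 CPM and 27.5 to 42.3 CPM). The others were 1 of 6 sinusoidal endothelium genes (91.5 to 198 CPM and 96.4 to 120.2 CPM) and the 1 neutrophil gene tested of 8 (0.894 to 22.6 CPM and 0.365 to 1.07 CPM). Of these summed levels, only that of the bile duct genes did not overlap between the groups. None of the 6 stellate cell genes was called (120 to 185 CPM and 123 to 213 CPM), nor the 1 pancreatic acinar gene tested of 4 (11.1 to 36.9 CPM and 22.5 to 32.5 CPM; Prss2, Cpa1 and Amy2a1 at 0), and the 4 adipocyte genes were too low to test (0.168 to 1.55 CPM and 0.243 to 0.800 CPM). Control 2 stood apart from the other controls: quality weights fitted to the libraries gave it the lowest weight, 0.309. Fits without control 2 are given below. What the differences in cell markers contribute to the Cyp4a values was not tested. In bulk liver, a change in RNA per cell and a change in the number of cells that make it cannot be told apart.

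Sorbate libraries had more mRNA of 4 of the 6 members. Cyp4a10, Cyp4a14, Cyp4a31 and Cyp4a12b rose and none fell, at an adjusted p under 0.05 (edgeR quasi-likelihood, Benjamini-Hochberg over all genes), while 6.14% of all genes tested were called higher and 6.3% lower. The groups did not overlap in these 4 genes, against 9.42% of all genes tested that were higher without overlap. The rises ran from 2.06-fold for Cyp4a12b to 16.3-fold for Cyp4a10, and the median log2 fold change of the 6 members was 1.33 beside −0.02 for all genes tested. Scaling by library size alone moved that overall median to 0.11 and the calls over all genes from 818 higher and 838 lower to 1300 and 550, and the calls of these 4 members held.

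**Figure D1:**
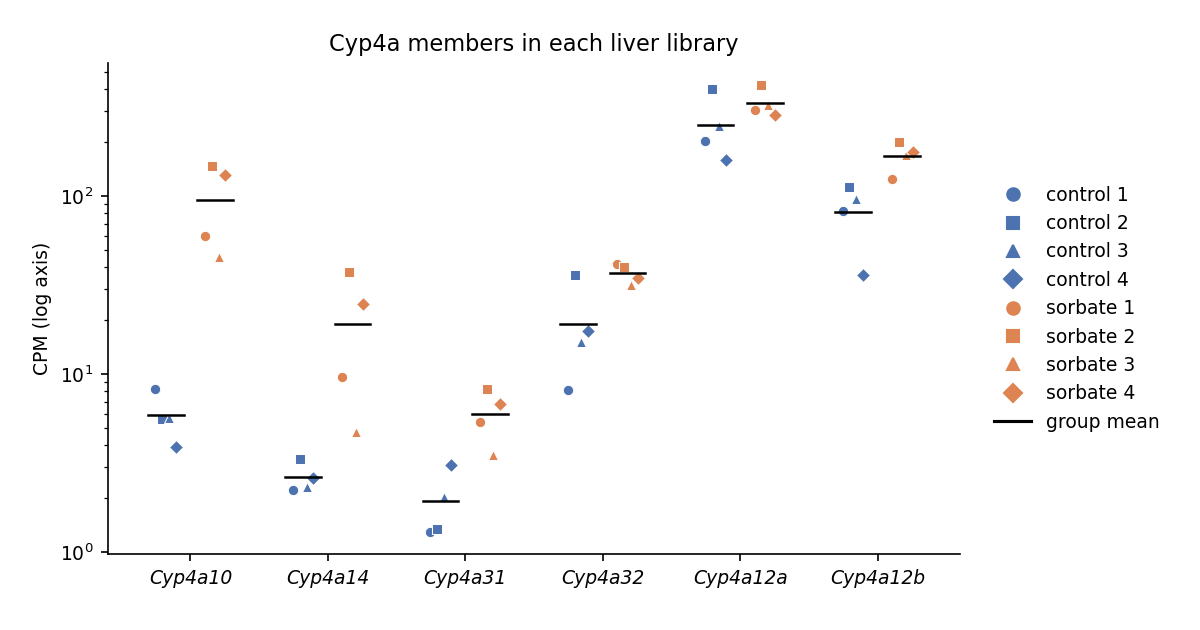
CPM of each Cyp4a member (log axis) in the 4 control and the 4 sorbate libraries, 1 symbol per library, with the group means as black bars. Cyp4a10 lies at 3.89 to 8.26 CPM in controls and 45.5 to 147 CPM with sorbate, while the groups overlap for Cyp4a12a and Cyp4a32.

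Cyp4a10, a lauric acid omega-hydroxylase and one of the standard readouts of PPAR-alpha in mouse liver (ENSMUSG00000066072, chromosome 4, 115518264 to 115533649, plus strand), had the highest fold change of the 6 members. It stood at 8.26, 5.59, 5.66 and 3.89 CPM in controls 1 to 4 and at 59.3, 147, 45.5 and 131 CPM in sorbate 1 to 4. The lowest sorbate library was thus 5.51 times the highest control. Its log2 fold change was 4.03 (SE 0.40, edgeR adjusted p = 6.079e-04), the third highest of the 13312 genes tested. Sorbate 2 and 4 were the high libraries and sorbate 1 and 3 the low ones, 3.22-fold apart at the extremes. The call held in all 13 alternatives, with log2 fold changes from 3.75 to 4.26.

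Cyp4a14, the other strongly PPAR-alpha dependent member (ENSMUSG00000028715, chromosome 4, 115486200 to 115496142, minus strand), rose from a low base. Its levels were 2.24, 3.35, 2.32 and 2.61 CPM in the controls and 9.61, 37.6, 4.71 and 24.9 CPM with sorbate. All sorbate libraries lay above all controls, but sorbate 3 exceeded the highest control by only 1.41 times. The log2 fold change was 2.87 (SE 0.55, edgeR adjusted p = 0.0103). Of the members it was the most uneven within the sorbate group, where the highest library was 7.97 times the lowest. Sorbate 2, 4, 1 and 3 stood in the same descending order as for Cyp4a10. Without sorbate 2 the log2 fold change was 2.31, and the call held in all 13 alternatives, with adjusted p up to 0.0467.

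Cyp4a31, a close copy of Cyp4a10 (ENSMUSG00000028712, chromosome 4, 115563649 to 115579015, plus strand), was the least abundant member per length. It had 26, 24, 42 and 63 counts in the controls and 144, 186, 77 and 112 with sorbate, that is 1.29, 1.34, 2.03 and 3.10 CPM against 5.38, 8.27, 3.52 and 6.82 CPM. The groups did not overlap, and sorbate 2 was again highest and sorbate 3 lowest. The log2 fold change was 1.62 (SE 0.34, edgeR adjusted p = 0.0137), and the call held in all 13 alternatives (1.43 to 1.98, adjusted p up to 0.0448). Since 12.8% of its 50-base windows also occur in Cyp4a10, which rose far more, reads of Cyp4a10 could contribute to this count, and their part was not tested.

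Cyp4a32, the third gene of this close group (ENSMUSG00000063929, chromosome 4, 115600969 to 115621602, plus strand), did not pass the test over all libraries. Its levels were 8.11, 36.0, 15.0 and 17.5 CPM in the controls and 41.4, 40.0, 31.5 and 34.5 CPM with sorbate. Control 2 lay inside the range of the sorbate libraries, whereas controls 1, 3 and 4 lay below it. The log2 fold change was 0.95 (SE 0.35, edgeR adjusted p = 0.0967). Without control 2 it was 1.45 and was called (adjusted p = 5.076e-04). DESeq2 also called it (log2 fold change 0.95, adjusted p = 0.0354), as did edgeR without a filter on low counts (adjusted p = 0.0373) and limma-voom with quality weights (1.32, adjusted p = 0.0017). With 1 surrogate variable as a covariate it was 0.51 (edgeR adjusted p = 0.2698). That variable itself differed between the groups: controls 1, 3 and 4 stood at −0.51 to −0.36, the sorbate libraries at 0.06 to 0.28 and control 2 at 0.48. As a covariate it can therefore also take up part of the difference between sorbate and control, and how much was not tested. The quality weights in turn gave control 2 the lowest weight, 0.309. The limma-voom call is thus not separate from the call without control 2. Of the 50-base windows of Cyp4a32, 34.8% also occur in Cyp4a10, so reads of Cyp4a10 could contribute to its count, and their part was not tested.

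The Cyp4a12 pair made up most of the family's reads. Cyp4a12a (ENSMUSG00000066071, chromosome 4, 115299046 to 115332815, plus strand) stood at 204, 401, 246 and 159 CPM in the controls and 306, 419, 324 and 285 CPM with sorbate. Control 2 was above 3 of the 4 sorbate libraries. Its log2 fold change of 0.40 (SE 0.25, edgeR adjusted p = 0.317) did not pass. Without control 2 it was 0.73 and passed (adjusted p = 0.00889). It also passed in limma-voom with quality weights (0.54, adjusted p = 0.0415), which gave control 2 the lowest weight. It was 0.24 without control 4 (edgeR adjusted p = 0.589), 0.28 without sorbate 2 (adjusted p = 0.540) and 0.11 with the surrogate variable (adjusted p = 0.833).

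Cyp4a12b (ENSMUSG00000078597, chromosome 4, 115411624 to 115439034, plus strand), whose coding sequence differs from Cyp4a12a at 23 of 1524 bases, was called higher. It stood at 82.1, 112, 96.6 and 36.0 CPM in the controls and 124, 202, 169.8 and 176 CPM with sorbate, with sorbate 1 just 1.11 times control 2. The log2 fold change was 1.04 (SE 0.29, edgeR adjusted p = 0.0422). This call was lost when any sorbate library, control 1 or control 3 was left out (log2 fold changes 0.94 to 1.16, adjusted p 0.0545 to 0.0998). It was lost as well when 1 surrogate variable was a covariate (0.82, edgeR adjusted p = 0.1798). Without control 4, the lowest library, it was 0.79 and still called. Since 49.4% of the 50-base windows of Cyp4a12b also occur in Cyp4a12a, reads of either gene could contribute to both counts, and their part was not tested.

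**Figure D2:**
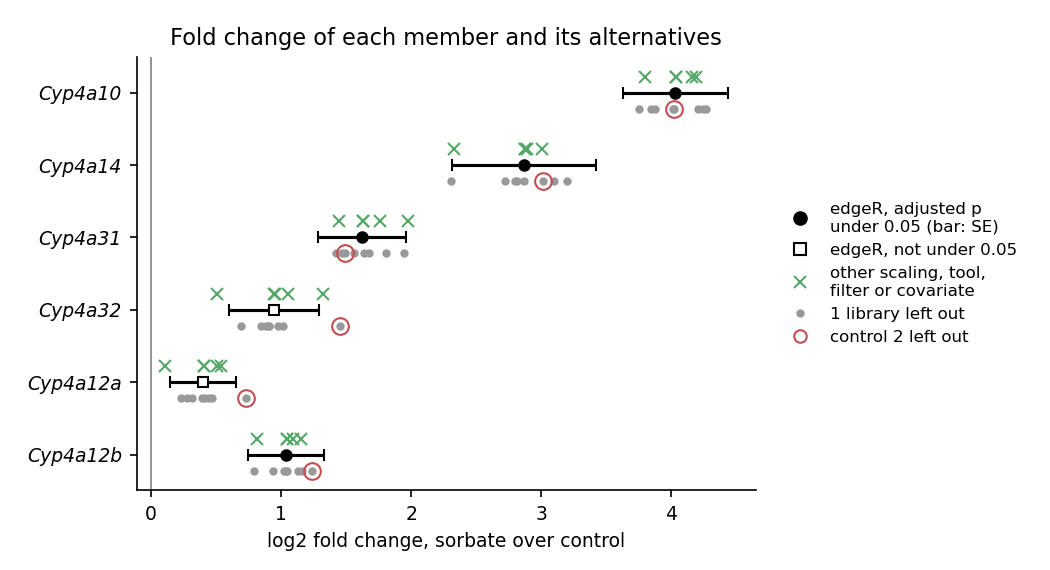
Log2 fold change (sorbate over control) of each member: black symbols with SE bars are the edgeR values (filled where called), crosses the other scaling, tool, filter and covariate settings, and grey dots the fits with 1 library left out. Circles mark the fits without control 2, at 1.45 for Cyp4a32 and 0.73 for Cyp4a12a.

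Because reads may be divided among copies, summed levels were also taken, as a description without a test. The sum over Cyp4a10, Cyp4a31 and Cyp4a32 was 17.7, 43.0, 22.7 and 24.5 CPM in the controls and 106, 195, 80.5 and 172 CPM with sorbate. Its means were 27.0 ± 11.05 and 138 ± 53.9 CPM (SD, n = 4 per group), 5.13-fold apart. With Cyp4a14 added, the means were 29.6 ± 11.5 and 158 ± 68.7 CPM (SD, n = 4), 5.32-fold apart, and again no sorbate library overlapped a control.

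For Cyp4a12a and Cyp4a12b together the values were 286, 513, 342 and 195 CPM in the controls and 430.5, 621, 494 and 462 CPM with sorbate, where control 2 exceeded 3 of the 4 sorbate libraries. The means differed 1.502-fold (334 ± 134 and 502 ± 83.5 CPM; SD, n = 4). Over all 6 members the sum was 306, 559, 367 and 222 CPM in the controls and 546, 853, 579 and 658 CPM with sorbate, 1.81-fold higher on average. The groups overlapped by 1 library, control 2 standing above sorbate 1.

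The make-up of the family's reads differed between the groups. Cyp4a10 took 0.999% to 2.70% of the Cyp4a counts in the controls and 7.86% to 19.8% with sorbate. The share of Cyp4a12a was 66.6% to 71.6% in the controls and 43.3% to 56.0% with sorbate, again without overlap. That of Cyp4a12b overlapped, at 16.2% to 26.9% and 22.8% to 29.3%. A share falls where other members rise, and the mean level of Cyp4a12a itself was 334 ± 58.9 CPM with sorbate, against 252 ± 105 CPM in controls (SD, n = 4).

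**Figure D3:**
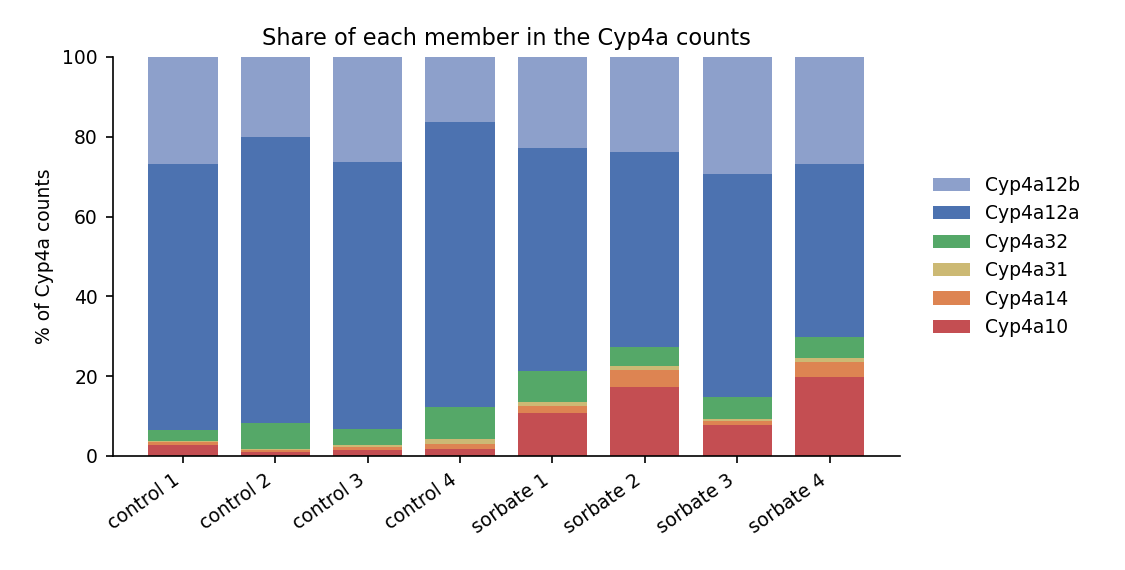
Share of each member in the Cyp4a counts of each library, in percent, stacked to 100% per library. The Cyp4a10 segment spans 0.999% to 2.70% in the 4 controls and 7.86% to 19.8% in the 4 sorbate libraries.

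Per kilobase of exon (RPKM, CPM divided by the annotated exonic length), the order of the members also differed. In the controls Cyp4a12a came first (104 ± 43.5 RPKM), before Cyp4a12b (34.1 ± 13.7), Cyp4a32 (12.5 ± 7.76), Cyp4a10 (2.77 ± 0.857), Cyp4a14 (1.01 ± 0.195) and Cyp4a31 (0.774 ± 0.336; SD, n = 4 throughout). Ranges of neighbours in this order overlapped between Cyp4a12b and Cyp4a32 and between Cyp4a14 and Cyp4a31. With sorbate Cyp4a10 stood at 45.3 ± 24.0 RPKM, after Cyp4a12a (138 ± 24.3) and Cyp4a12b (70.2 ± 13.5) and before Cyp4a32 (24.0 ± 3.04), Cyp4a14 (7.38 ± 5.75) and Cyp4a31 (2.39 ± 0.808; SD, n = 4). There the range of Cyp4a10 overlapped those of Cyp4a12b and Cyp4a32, although it was below Cyp4a12b and above Cyp4a32 in all 4 libraries. Cyp4a10 was just above Cyp4a32 in sorbate 1 (28.1 against 27.0 RPKM) and sorbate 3 (21.6 against 20.5 RPKM). The gap was wider in sorbate 2 (69.6 against 26.0 RPKM) and sorbate 4 (61.9 against 22.5 RPKM). The ranges of Cyp4a14 and Cyp4a31 overlapped as well. The annotated Cyp4a32 transcript of 1530 bases is almost all coding sequence, so its level per length rests on a shorter gene model than those of the other members.

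Whether members differed from each other in their response was tested within libraries, on the log2 ratio of the counts of 2 members, over all 15 pairs. No pair passed an adjusted p of 0.05 in exact two-sided permutation tests over 70 arrangements. These tests can give no p below 0.0286, so a pair could pass only if most of the 15 pairs had that value. The lack of a pass therefore does not show that the members respond alike. At unadjusted p under 0.05, 6 pairs had the smallest possible value (exact p = 0.0286, adjusted p = 0.0714 over 15 pairs). Of these, 5 set Cyp4a10 against each other member: relative to Cyp4a12a it moved by 3.43 on the log2 scale, relative to Cyp4a32 and Cyp4a12b by 2.77 each, relative to Cyp4a31 by 2.27 and relative to Cyp4a14 by 1.45. The sixth was Cyp4a12a against Cyp4a12b, whose log2 ratio fell by 0.66. The ratios of all 4 sorbate libraries lay beyond those of all 4 controls in these 6 pairs, and overlapped in the other 9.

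By root mean square difference between mean-centred log2 CPM profiles over the 8 libraries, among 11194 genes outside the family, the nearest gene to Cyp4a10 was Acot1, a cytosolic acyl-CoA thioesterase (0.49 log2 units). Next came the clock-linked genes Usp2 (0.67) and Wee1 (0.67). Nearest to Cyp4a14 were Cyp2a22 (0.61), Acot1 (0.75) and the lipase gene Lipg (0.75), and to Cyp4a31 Unc5b (0.35), Txnip (0.36) and Zbed5 (0.42). Cyp4a32 was nearest to Mycl (0.22), Gnpda1 (0.24) and Ppm1k (0.24). The Cyp4a12 genes had other neighbours: Tmem120b (0.14), Fam122b (0.15) and Sec31b (0.16) for Cyp4a12a, and the carboxylesterases Ces1f (0.16) and Ces1e (0.21) and Naaladl2 (0.21) for Cyp4a12b. The profiles span both groups, so genes of like fold change lie near each other on this measure, whether or not they vary together within a group. Genes of small range also lie near each other, and the SD of log2 CPM was 2.17 for Cyp4a10 but 0.48 for Cyp4a12a. Within the family the closest pair was Cyp4a12a and Cyp4a12b (0.44) and the farthest Cyp4a10 and Cyp4a12a (1.81).

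Genes that act before and after omega-hydroxylation were read from gene lists. The calls of every list below are to be read beside the 6.14% of all genes tested that were called higher and the 6.3% called lower. The lists were chosen with earlier results of these data known, so a count above these shares is no test of a list. Among 18 tested genes of PPAR-alpha, its partners and coregulators, 3 rose and 0 fell (median log2 fold change 0.22). Ppara itself, which encodes the receptor, rose from 75.3 ± 8.32 to 146 ± 31.4 CPM (SD, n = 4; log2 fold change 0.95, SE 0.16, edgeR adjusted p = 0.00569), and Ppargc1b, a coactivator, from 2.12 ± 1.30 to 6.94 ± 0.890 CPM. Both calls held in all 8 leave-outs. Creb3l3, a liver transcription factor that works with PPAR-alpha, rose by 0.53 (SE 0.13), a call lost without control 1, control 3, sorbate 1, sorbate 3 or sorbate 4.

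Microsomal P450s take their electrons from P450 reductase, encoded by Por, and from cytochrome b5. Por rose from 193, 96.5, 173 and 150.2 CPM in the controls to 491, 365, 408 and 571 CPM with sorbate. The groups did not overlap (log2 fold change 1.58, SE 0.22, edgeR adjusted p = 0.00245), and the call held in all 8 leave-outs. Of the 4 genes of this list 2 rose and 1 fell (median 0.08). Cyb5a, the microsomal cytochrome b5, rose by 0.50 (SE 0.12), and Cyb5b, the form of the mitochondrial outer membrane, fell by 0.58 (SE 0.15). Both of these calls were lost without control 1, control 3, sorbate 1, sorbate 3 or sorbate 4, where the list had 1 call, and that of Cyb5b also with library size alone.

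Of 9 tested dehydrogenase genes for the step from omega-hydroxy to dicarboxylic acids, 2 rose and 1 fell (median 0.08). Aldh3a2, the microsomal fatty aldehyde dehydrogenase, rose from 75.7 ± 31.8 to 269.8 ± 104 CPM (SD, n = 4; log2 fold change 1.83, SE 0.34, edgeR adjusted p = 0.00891), and its call held in all 8 leave-outs. Aldh9a1, an aminoaldehyde dehydrogenase, rose by 0.37 (SE 0.11) and Adh4, an alcohol dehydrogenase, fell by 0.41 (SE 0.10). The list had 1 call without control 4, sorbate 1, sorbate 3 or sorbate 4. The call of Aldh9a1 was also lost without control 3 or sorbate 2, and that of Adh4 without control 1 and with library size alone.

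Of 22 tested genes listed for the peroxisomal handling of dicarboxylic acids and acyl-CoAs, 14 rose and 1 fell (median 0.62). The list is not purely peroxisomal. The 14 include Suclg1, a mitochondrial succinyl-CoA ligase subunit gene (0.37, SE 0.11), and Acsl1 (1.63, SE 0.28), whose acyl-CoA synthetase is not confined to peroxisomes. Acot4, a succinyl-CoA thioesterase, rose from 12.8 ± 2.09 to 49.0 ± 9.83 CPM and Acot3, a peroxisomal long-chain thioesterase, from 0.336 ± 0.308 to 5.18 ± 1.89 CPM (SD, n = 4). Decr2 and Eci2, which process unsaturated acyl-CoAs, rose by 0.96 (SE 0.13) and 0.80 (SE 0.13) on the log2 scale. The 1 gene that fell was Crot, carnitine octanoyltransferase (−0.65, SE 0.16, edgeR adjusted p = 0.0247), whose call was lost with library size alone. No gene of the list was called lower without control 4, sorbate 1, sorbate 3 or sorbate 4. Crot, Suclg1 and Acsl1 are named here after their values were seen. Calls in either direction fell from 15 to between 8 and 11 when any library other than control 2 was left out, with 9 without control 3 or sorbate 2 and 8 without sorbate 4.

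**Figure D4:**
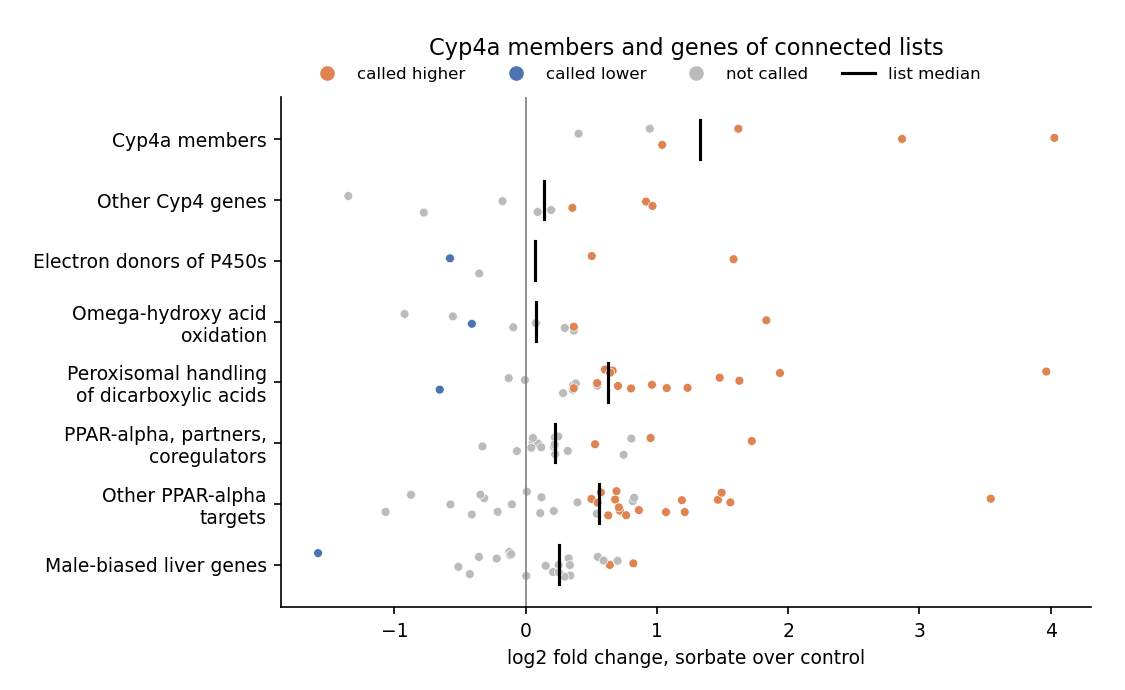
Log2 fold change (sorbate over control) of the 6 Cyp4a members and of the tested genes of 7 lists, 1 point per gene, with list medians as black lines. The medians are 1.33 for the members, 0.62 for the peroxisomal handling list, 0.56 for other PPAR-alpha targets and 0.14 for other Cyp4 genes.

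Of 34 tested PPAR-alpha targets outside this route, 17 rose and 0 fell (median 0.56). Acot1 rose by 3.54 (SE 0.29), the carnitine transporter gene Slc22a5 by 1.19 (SE 0.14), Fitm2, a lipid droplet protein gene, by 1.07 (SE 0.13) and Acadl, a mitochondrial acyl-CoA dehydrogenase gene, by 0.72 (SE 0.10). All 4 calls held in all 8 leave-outs. Without control 4 the list had 11 calls. The acyl-CoA thioesterases have close copies and may share reads. Several targets often measured beside Cyp4a10 did not pass, and are named after their values were seen. Pdk4, a brake on pyruvate use, stood at 2.94 ± 0.517 and 1.60 ± 1.04 CPM (log2 fold change −0.87, edgeR adjusted p = 0.148), Angptl4, a lipoprotein lipase inhibitor, at 130.1 ± 12.96 and 142 ± 39.4 CPM (0.12, adjusted p = 0.718), Plin2, a lipid droplet coat gene, at 483 ± 55.7 and 449.6 ± 178 CPM (−0.10, adjusted p = 0.800), and the hormone gene Fgf21 at 1.34 ± 0.819 and 1.97 ± 1.999 CPM (0.54, adjusted p = 0.663; SD, n = 4).

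Other Cyp4 genes were read as the nearest relatives. Of the 14 counted, 8 were tested, and 3 rose and 0 fell (median 0.14). These were Cyp4v3, a fatty acid omega-hydroxylase (from 253 ± 119 to 494 ± 60.3 CPM, log2 fold change 0.97, SE 0.26), Cyp4f15 (0.92, SE 0.21) and Cyp4f13 (0.36, SE 0.10). The other 5 had log2 fold changes from −1.35 to 0.19. The list had 0 calls by edgeR when control 1, 3 or 4 or sorbate 3 or 4 was left out, and 1 call without sorbate 1. In control 2, Cyp4v3 stood at 430.1 CPM and Cyp4f15 at 134 CPM, above 182 to 199 CPM and 68.3 to 79.3 CPM in the other controls.

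As Cyp4a12a is a male-predominant gene, 23 male-biased liver genes were set beside it, of which 2 rose and 1 fell (median 0.25). These counts lie near the shares over all genes tested, 6.14% higher and 6.3% lower. Cyp2d9, a male-predominant steroid hydroxylase, rose by 0.82 (SE 0.20), Gstp2, a glutathione transferase gene, by 0.64 (SE 0.16), and Elovl3, a fatty acid elongase gene, fell by 1.58 (SE 0.30). Elovl3 held in all 8 leave-outs. The count moved with single libraries. Without control 2, 11 of these genes were called higher and 1 lower, beside 2053 higher and 1915 lower of 13559 genes tested, while only Elovl3 was called when control 1, 3 or 4 or sorbate 1, 3 or 4 was left out.

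The members lie within 323 kb, from the start of Cyp4a12a to the end of Cyp4a32. Of 23 other annotated genes in this span or within 250 kb of it, 13 had a count of 0 in all 8 libraries, among them Cyp4a29 and Cyp4a30b. A count of 0 allows up to 3 counts over the 8 libraries, or 0.0180 CPM. Of the 7 that were tested, 6 were not called and 1 fell. Cyp4b1, the direct neighbour of Cyp4a32, named after its value was seen, had a log2 fold change of 0.19 (SE 0.13, edgeR adjusted p = 0.366). The gene that fell was Pdzk1ip1, which encodes a small membrane protein (from 4.40 ± 2.03 to 1.49 ± 0.515 CPM; SD, n = 4), and its call was lost without control 1, control 3, sorbate 1, sorbate 3 or sorbate 4.

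**Figure D5:**
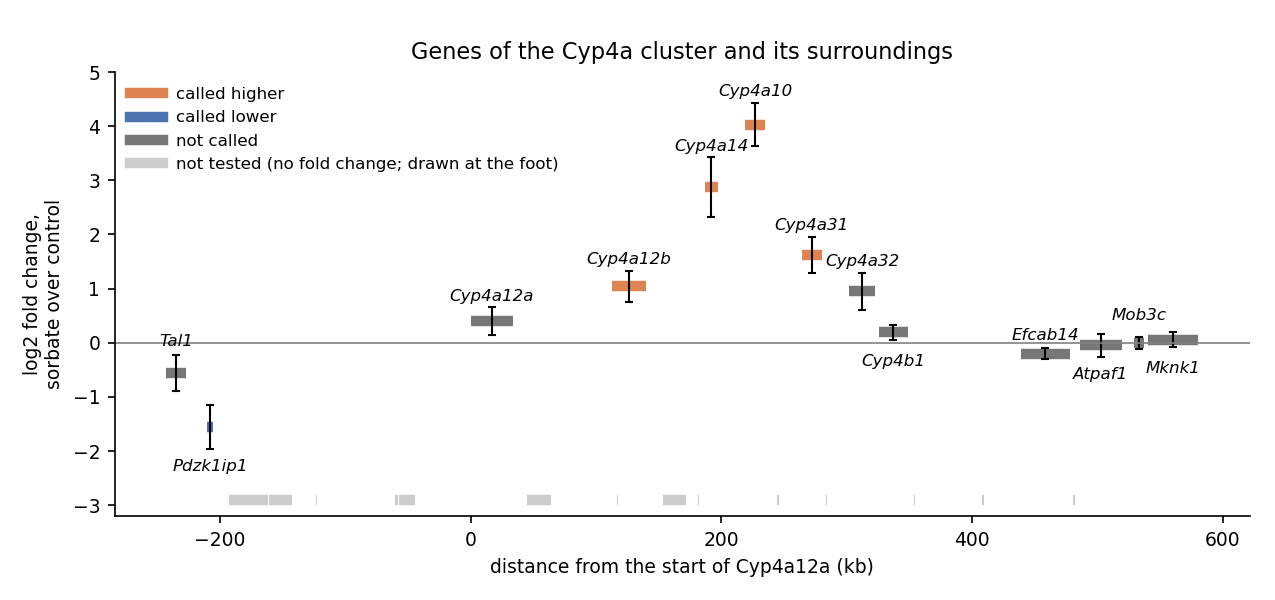
Genes around the Cyp4a cluster by distance from the start of Cyp4a12a (kb), with their log2 fold change (sorbate over control; bars are SE), coloured by call, and untested genes as light blocks at the foot. The 4 members called higher lie between 1.04 and 4.03, and the tested genes after the cluster between −0.20 and 0.19.

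PPAR-alpha binds direct repeats of AGGTCA spaced by 1 base. RefSeq's promoter windows on GRCm38.p6, from 250 bases before a gene's start to 50 after it, held 1 of the 6 members, Cyp4a32. Neither this repeat nor the looser repeat of AGGNCA with the same spacing was found in it on either strand, and 0.0396% and 0.381% of all 32851 windows hold them. With repeats this rare, nearly every window lacks them, and binding of PPAR-alpha to the members was not tested. A single AGGNCA was found there, as in 57.2% of all windows.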

How the data were processed

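RNA was measured in 8 mouse liver libraries (4 control, 4 sorbate) as single reads after oligo(dT) selection and TruSeq preparation, per the labels' protocols. The deposited table holds raw counts, whole numbers of reads per gene. Per the submitters' processing notes, FastQC, HISAT2 2.1.0, Subread, edgeR and build GRCm38 were used; the sources used here do not state counting settings, strand or the handling of multiply matching reads. Groups come from the treatment label, and replicate numbers follow accession order. The table has 4 further columns of per-sample values that matched no sample and were not used.

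Genes were filtered with filterByExpr (count minimum 10), scaled by TMM and tested with glmQLFit and glmQLFTest of edgeR 4.0.16 in R 4.3.3. The quasi-likelihood p-values are two-sided and were adjusted over 13312 genes after Benjamini and Hochberg, with 0.05 as the threshold. The SE of a log2 fold change comes from the unshrunk coefficient and the F statistic. Profiles used log2 CPM with a prior count of 2. Pairs of members were compared by exact permutation with 0.5 added to counts. Alternatives were library size scaling, DESeq2 1.42.0, no filter, limma-voom with quality weights (limma 3.58.1), 1 surrogate variable (sva 3.50.0, on log2 CPM) and leaving out each library. Positions, lengths and transcripts are from GENCODE M21, where 55141 of 55487 gene identifiers were found, and coding sequences were aligned with MAFFT 7.526.

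Members and lists were chosen with earlier results of these data known. The naming rule took all members, Ppara, Por, called Cyp4 relatives and called neighbours, up to 4 called genes of lowest p per list, and 3 genes of nearest profile per member. Genes outside it are marked.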

Additional observations from a re-analysis of the deposited data

Results flagged for a closer look

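In 5 of 102 groups of 4 libraries examined, the highest or lowest library lay so far from the nearest of the others, as a share of the group's range, as chance gives in about 1 group of 20 (Dixon's test). The number flagged is near that rate. No Cyp4a member or sum was among the 5 groups. Control 2 was high for Cyp4v3 (430.1 CPM, the other controls 182 to 199 CPM), Cyp4f15 (134 CPM against 68.3 to 79.3 CPM) and Elovl3 (628 CPM against 273 to 316 CPM). Control 1 was low for Eci2 (121 CPM against 153 to 158 CPM). Control 4 was high for Unc5b (1.97 CPM against 1.05 to 1.17 CPM).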

How the results depend on the processing

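All 6 members kept a positive log2 fold change in all 13 alternatives. The number of members called was 4, with 3 to 6 over the leave-outs, 4 with library size alone, 5 with DESeq2 and without a filter, 6 with quality weights and 3 with the surrogate variable. Calls over all genes were 818 higher and 838 lower, 1968 and 1944 with quality weights, 323 and 301 with the surrogate variable, 2053 and 1915 without control 2, and between 332 and 555 higher and 357 and 572 lower without another library. Over the leave-outs the log2 ratio of summed levels ran from 0.68 to 1.14 for all members, 2.16 to 2.71 for Cyp4a10, Cyp4a14, Cyp4a31 and Cyp4a32, and 0.40 to 0.87 for the Cyp4a12 pair. Called genes ran from 0 to 4 for other Cyp4 genes and 1 to 3 for electron donors. For omega-hydroxy acid oxidation they ran from 1 to 4, and for the peroxisomal handling list from 8 to 16. The range was 2 to 4 for PPAR-alpha and its partners, 11 to 19 for other PPAR-alpha targets and 1 to 12 for male-biased genes. With the surrogate variable, which itself differed between the groups, the calls of Creb3l3, Cyb5a, Cyb5b, Adh4, Aldh9a1, Cyp4v3, Cyp4f13, Cyp2d9, Gstp2 and Pdzk1ip1 were also lost. Fewer libraries lower the power of each leave-out, and other causes were not tested. No pair of members passed with a pseudocount of 2 either, under the same limit of the permutation test. No paired analysis was possible because the labels give no replicate numbers that groups share.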
